A study of Mus musculus with 6 samples.

Results

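The circadian clock and output genes described here were 10 of the 27998 genes listed for every library, namely Per1, Per2, Nr1d1, Nr1d2, Dbp, Tef, Ciart, Arntl, Clock and Bhlhe40. They were found by their gene symbols. The list was chosen by earlier results on the levels of these genes in the 3 organs, as a check on the time of day at which the organs were taken. Organ differences of the 10 genes are therefore given as a description, with no test. The cells were invariant natural killer T (iNKT) cells, T cells whose receptor binds lipids held by CD1d. They came from 3 organs, the liver, the spleen and lymph node, and each organ gave 2 libraries (n = 2). All mice were wild-type C57BL/6 animals of 5 weeks with no treatment named, and the cells had been sorted with a CD1d tetramer and an antibody to TCR-β after depletion of CD8+ and B220+ cells. The sources used here do not say how many mice were pooled in a library, of which sex they were, which lymph nodes were taken, or at what hour and under which light cycle. The methods call the 2 libraries of an organ biological repeats, but do not say whether each came from mice of its own, so errors and p-values measure the spread between these libraries.

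The circadian clock is a feedback loop that runs in nearly every cell. The proteins of Clock and Arntl (also called BMAL1) bind E-box sequences and switch on Per, Cry, Nr1d1, Nr1d2, Dbp and Ciart, whose products act back on them, so that Arntl and the Per, Nr1d and Dbp transcripts peak at nearly opposite times of day. In T cells the same factors are also used for other ends. REV-ERBα and REV-ERBβ, the proteins of Nr1d1 and Nr1d2, and the ROR receptors compete for the same DNA element, and Bhlhe40 and Per1 also respond to activating or stress signals.

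The 16532 cells kept held 28105556 unique molecular identifiers (UMIs, counted molecules) after removal of ribosomal and haemoglobin genes, 3607599 to 7127281 per library. Before that removal, the median per cell was 3592 and 2880 UMIs in liver, against 1470 to 1730.5 in the other 4 libraries. Of all barcode sequences, 148 occurred in more than 1 library. The T cell and iNKT genes Cd3d, Cd3e, Cd3g and Zbtb16 summed to between 4385 and 5656 CPM in every library, where CPM are UMIs scaled to the same total in each library. Xist was at 0 in both lymph node libraries and Y-chromosome genes were at 0 in the other 4, so sex cannot be told apart from lymph node in any comparison with that organ, and neither can the hour of harvest.

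Start regions of 4 of the genes are shown because they hold the letters through which the loop is known to act. RefSeq (GRCm38.p6) gave windows from 250 bases before to 50 bases after an annotated start for 8 of the 10 genes, 13 windows in all. Per2 and Bhlhe40 had none. The windows below are 5′ to 3′ on the strand of the gene, with matches in capitals: Ciart on the minus strand at chr3:95882179-95882478, Per1 on the plus strand at chr11:69098699-69098998 (the first of its 2 windows), Nr1d1 on the minus strand at chr11:98775328-98775627, and Arntl on the plus strand at chr7:113207261-113207560 (its second window).
Ciart: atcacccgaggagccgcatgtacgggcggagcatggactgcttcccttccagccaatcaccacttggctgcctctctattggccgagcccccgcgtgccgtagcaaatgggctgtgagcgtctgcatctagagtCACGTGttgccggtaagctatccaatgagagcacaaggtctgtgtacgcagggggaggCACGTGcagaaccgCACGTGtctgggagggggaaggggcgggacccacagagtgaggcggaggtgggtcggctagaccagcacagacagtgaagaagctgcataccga
Per1: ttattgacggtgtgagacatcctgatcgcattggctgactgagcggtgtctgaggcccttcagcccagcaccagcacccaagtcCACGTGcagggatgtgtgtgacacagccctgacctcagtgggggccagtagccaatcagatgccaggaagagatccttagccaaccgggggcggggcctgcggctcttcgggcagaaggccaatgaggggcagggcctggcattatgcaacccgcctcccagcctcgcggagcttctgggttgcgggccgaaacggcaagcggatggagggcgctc
Nr1d1: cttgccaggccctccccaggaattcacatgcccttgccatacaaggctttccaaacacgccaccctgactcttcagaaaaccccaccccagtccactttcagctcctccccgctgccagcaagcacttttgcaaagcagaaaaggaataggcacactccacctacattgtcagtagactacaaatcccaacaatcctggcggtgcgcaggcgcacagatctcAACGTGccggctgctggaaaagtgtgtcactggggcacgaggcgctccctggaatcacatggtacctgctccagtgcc
Arntl: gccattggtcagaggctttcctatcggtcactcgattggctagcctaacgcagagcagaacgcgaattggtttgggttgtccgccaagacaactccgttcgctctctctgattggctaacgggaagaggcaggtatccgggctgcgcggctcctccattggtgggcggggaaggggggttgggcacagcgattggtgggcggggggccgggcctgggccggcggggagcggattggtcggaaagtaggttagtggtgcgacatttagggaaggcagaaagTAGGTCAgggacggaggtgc

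The E-box CACGTG was found 3 times in the Ciart window, with first bases at -116, -58 and -44 from the start. It was found once in the Per1 window shown, at -166, and once in each of the 2 Tef windows, at -127 and -138. Of all 32851 windows of this length, 7.15% held it. The near match CACGTT lay at -28 in the Nr1d1 window on the other strand, where it reads AACGTG, and 4.68% of all windows held it on either strand. The core of the ROR and REV-ERB element, TAGGTCA, lay at position 30 after the Arntl start, against 2.61% of all windows. The D-box letters TTATGTAA (0.938% of windows) and TTACGTAA (0.119%) and the cAMP response element TGACGTCA (1.79%) were in none of the 13 windows on either strand. None of these motifs overlapped another in these windows, and a match describes letters only.

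Of the 10 genes, 6 were higher in both lymph node libraries than in all 4 liver and spleen libraries, namely Ciart, Per1, Nr1d1, Nr1d2, Clock and Bhlhe40. Across all 10250 genes with enough counts for a test, 18.6% had that pattern, and since the 10 genes were selected on these values nothing is read from the count. Dbp, Tef, Arntl and Per2 did not have both lymph node libraries above the other 4. In total the 10 genes held 244.4 and 225.6 CPM in liver, 244.4 and 194.3 CPM in spleen, and 383.4 and 378.7 CPM in lymph node.

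**Figure D1:**
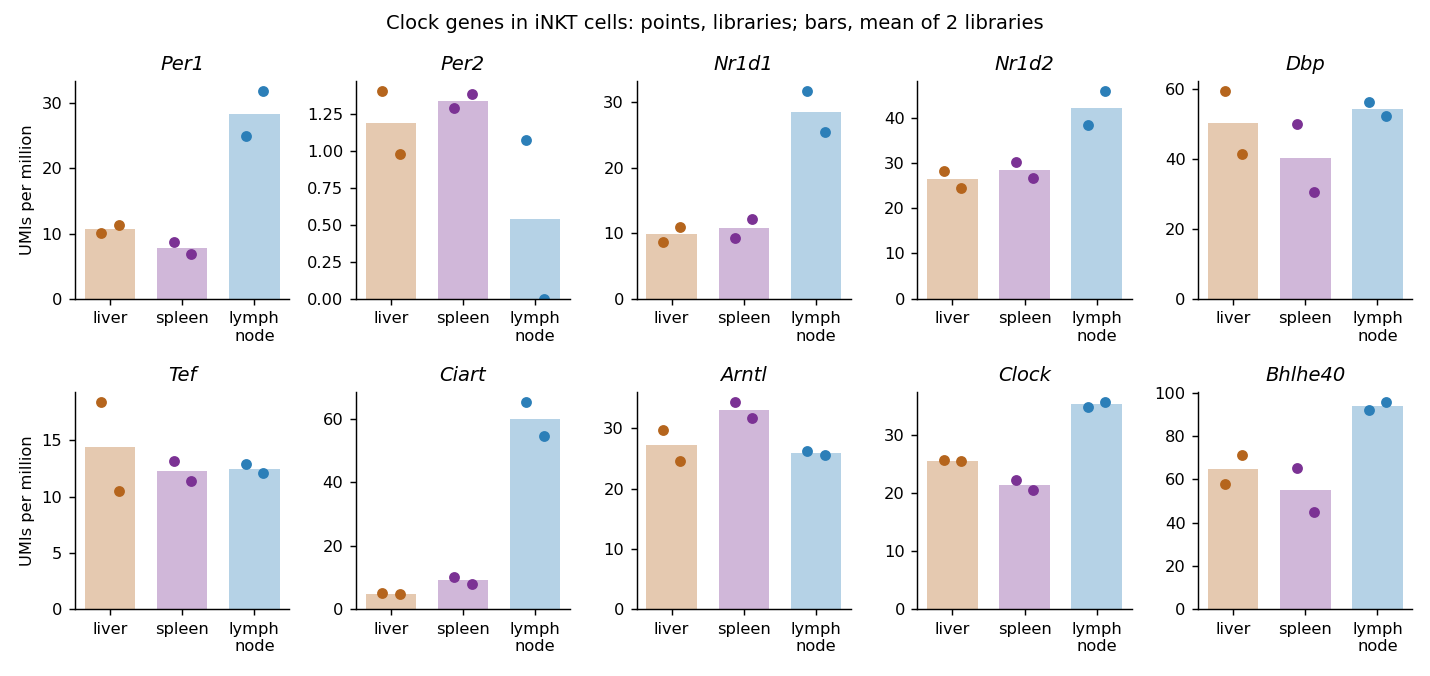
Level of each clock gene (CPM, y axis, a separate scale for each gene) in liver, spleen and lymph node iNKT cells. Points are the 2 libraries of an organ and bars their mean. For Ciart the lymph node libraries were at 65.2 and 54.6 and all others at 10.3 or below, whereas for Arntl and Tef the organs lay close together.

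Ciart had the highest fold of the 9 genes tested between lymph node and either other organ. Ciart (Chrono, ENSMUSG00000038550, chromosome 3, 95878503 to 95882251, minus strand, GRCm38) encodes a repressor that binds the BMAL1 protein. It was at 5.1 and 4.9 CPM in the liver libraries, 10.3 and 8.0 CPM in the spleen libraries, and 65.2 and 54.6 CPM in the lymph node libraries, from 36, 30, 40, 29, 243 and 199 UMIs. The levels stood in the order liver, spleen, lymph node, with no overlap between organs. The fitted level in lymph node was 12.4-fold that of liver (log2 3.64 ± 0.21, SE) and 6.41-fold that of spleen (log2 2.68 ± 0.21), and spleen was 1.94-fold above liver (log2 0.96 ± 0.27). An antisense gene, C920021L13Rik, is annotated across the whole 3749 bases of Ciart, and it had 12 to 21 UMIs in every library.

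Per1 (ENSMUSG00000020893, chromosome 11, 69095217 to 69109960) encodes the PERIOD1 repressor. It was at 10.1 and 11.3 CPM in liver, 8.8 and 6.9 CPM in spleen, and 24.9 and 31.8 CPM in lymph node. Lymph node was higher than liver by 1.46 ± 0.21 and higher than spleen by 1.83 ± 0.24 on the log2 scale (SE). Liver and spleen did not overlap, but their difference of 0.36 was little over its SE of 0.26. Per2, the other PERIOD gene of the list, was nearly undetected, with 10 and 6 UMIs from liver, 5 from each spleen library and 4 and 0 from lymph node, and it did not pass the filter on low counts. A count of 0 in the second lymph node library allows up to 0.823 CPM, and 0 of 2848 cells allows a share of up to 0.105% of cells with a captured UMI, which is no limit on cells that express Per2. A difference in Per2 was not detectable at this depth.

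Nr1d1 (REV-ERBα, ENSMUSG00000020889, chromosome 11, 98767932 to 98775333, minus strand) encodes the nuclear receptor that represses Arntl. It was at 8.7 and 10.95 CPM in liver, 9.3 and 12.2 CPM in spleen, and 31.6 and 25.5 CPM in lymph node. Liver and spleen overlapped, and lymph node lay 1.6 ± 0.22 above liver and 1.39 ± 0.24 above spleen (log2, SE). The 3′ end of Nr1d1 shares 1075 bases with Thra on the opposite strand, and the sources used here do not state whether counting used the strand. The UMIs of Thra were 160 and 89 for liver, 61 and 44 for spleen and 67 and 58 for lymph node, and the part of shared reads in the level of Nr1d1 was not tested. Its relative Nr1d2 (REV-ERBβ) was at 28.2 and 24.5 CPM in liver, 30.2 and 26.6 CPM in spleen, and 38.3 and 45.8 CPM in lymph node, with a smaller difference (log2 0.73 ± 0.16 over liver and 0.55 ± 0.17 over spleen).

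Bhlhe40 (DEC1), a repressor at E-boxes that T cells also raise after activation, was at 57.9 and 71.3 CPM in liver, 65.2 and 45.2 CPM in spleen, and 92.0 and 95.7 CPM in lymph node. Liver and spleen overlapped. Lymph node was higher by 0.59 ± 0.15 (over liver) and 0.74 ± 0.15 (over spleen) on the log2 scale (SE).

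The activators of the loop did not move together. Clock was at 25.7 and 25.5 CPM in liver, 22.2 and 20.5 CPM in spleen, and 34.9 and 35.7 CPM in lymph node, and lymph node was higher by 0.52 ± 0.17 and 0.70 ± 0.18 (log2, SE). Its partner Arntl (ENSMUSG00000055116, chromosome 7, 113207465 to 113314126) was at 29.7 and 24.5 CPM in liver, 34.3 and 31.6 CPM in spleen, and 26.3 and 25.5 CPM in lymph node. Arntl was thus highest in spleen, and liver and lymph node overlapped (log2 lymph node over liver -0.01 ± 0.17, over spleen -0.37 ± 0.18, SE).

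The output factors Dbp and Tef, which bind D-boxes, differed less between organs. Dbp was at 59.2 and 41.2 CPM in liver, 49.8 and 30.5 CPM in spleen, and 56.3 and 52.1 CPM in lymph node, so that lymph node lay above spleen (log2 0.41 ± 0.20, SE) but overlapped liver (log2 0.16 ± 0.18). The replicates of liver and of spleen differed by more than the organ means. Dbp shares 737 bases with Sphk2 on the opposite strand, whose UMIs were 174 and 122 for liver, 71 and 57 for spleen and 61 and 64 for lymph node, and the part of shared reads in the level of Dbp was not tested. Tef was at 18.4 and 10.5 CPM in liver, 13.1 and 11.4 CPM in spleen, and 12.9 and 12.1 CPM in lymph node, and all 3 organs overlapped. The 9 genes that passed the filter had a median log2 fold of 0.59 for lymph node over liver and 0.70 for lymph node over spleen, beside -0.0063 and -0.0035 over all genes, and of 0.15 for liver over spleen, beside 0.02.

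**Figure D2:**
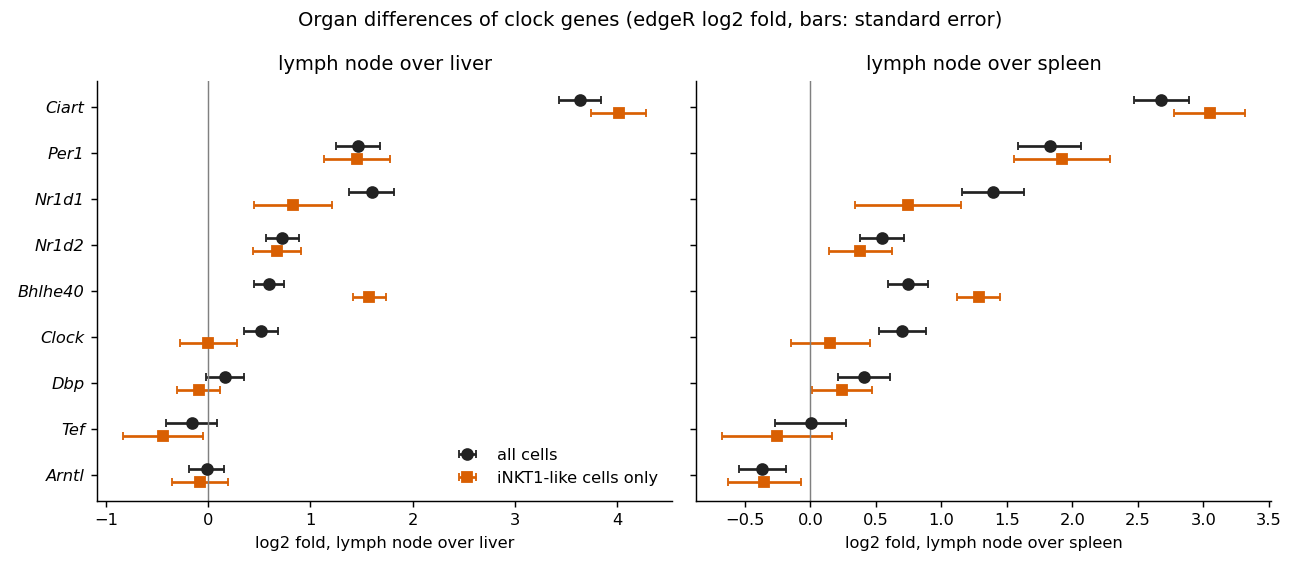
Log2 fold of lymph node over liver (left) and over spleen (right) for the 9 clock genes that passed the filter, fitted with edgeR. Black points are all cells, orange squares iNKT1-like cells only, and bars are standard errors. For lymph node over liver, Clock lay at 0.52 over all cells and at 0.00 in iNKT1-like cells, and Bhlhe40 at 0.59 and 1.58.

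These transcripts were rare in single cells, and liver cells held more UMIs, so shares of cells were compared after thinning each cell to 1000 UMIs. Cells with fewer UMIs were left out, in liver 0 and 9 of them, in spleen 144 and 169, and in lymph node 265 and 488. Ciart then had a UMI in 0.250% and 0.351% of liver cells, 0.696% and 0.523% of spleen cells, and 5.18% and 4.32% of lymph node cells (exact 95% binomial interval of the last, 3.54% to 5.22%). Unthinned shares were 1.29%, 1.05%, 1.47%, 1.05%, 8.26% and 6.53%, in the same order of libraries. Per1 had a UMI in 0.750% and 0.806% of liver cells, 0.619% and 0.483% of spleen cells, and 1.85% and 2.42% of lymph node cells (unthinned 2.46% and 2.34%, 1.21% and 0.942%, and 3.41% and 3.86%). No cell held more than 3 UMIs of Ciart or 2 of Per1, and most positive cells held 1. The intervals cover counting error only, and no cell type here lacks a clock that could give the background of free RNA.

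**Figure D3:**
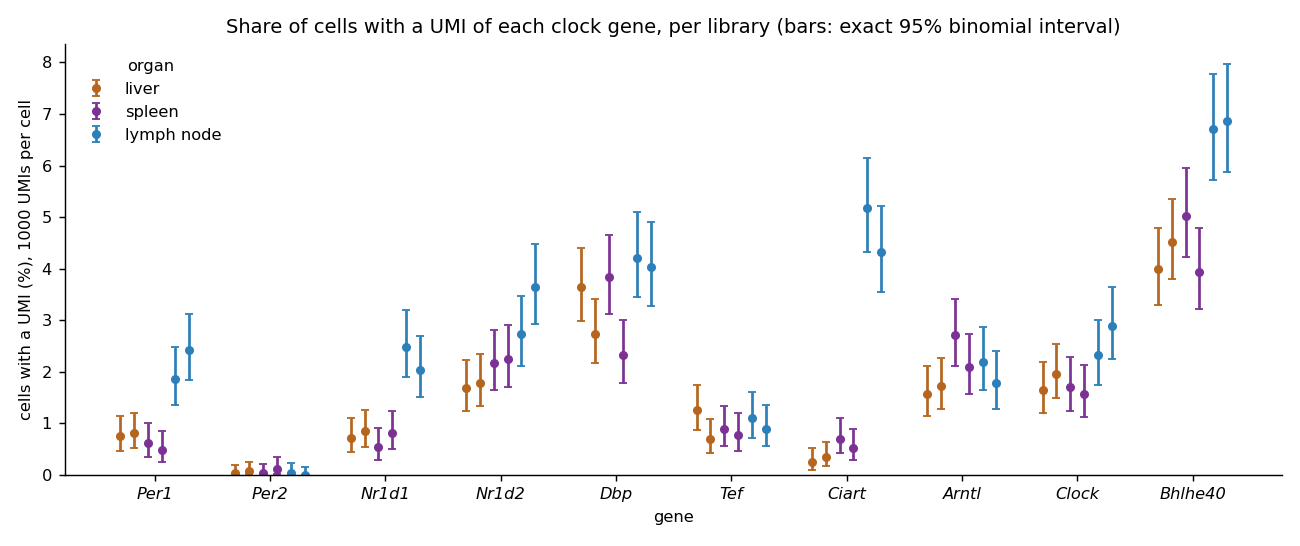
Share of cells with at least 1 UMI (percent, y axis) of each clock gene after thinning to 1000 UMIs per cell, in each of the 6 libraries. Points are libraries, colours organs and bars exact 95% binomial intervals. Ciart in lymph node (5.18% and 4.32%) lay far above the other 4 libraries (0.250% to 0.696%), whereas the intervals of all 6 libraries overlapped for Tef.

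The mixture of cells also differed between organs. Cells were put into classes by markers of other genes, with the clock genes left out of the clustering. iNKT1-like cells (Tbx21, Il2rb and natural killer receptors) made up 74.2% ± 5.71 (SD, n = 2) of the cells from liver, 71.7% ± 2.05 of those from spleen and 26.5% ± 1.22 of those from lymph node. The iNKT1-like name is the loosest of the classes. It was given to clusters that met no other name and whose iNKT1 markers had a median log2 fold above 0 over all other cells, 0.375 in cluster 0 and 0.194 in cluster 1. Most lymph node cells of that name, 560 of 676 and 596 of 779, were named by another rule. They were a part of cluster 2 whose iNKT1 markers had a median log2 fold of 0.885 over the rest of cluster 2 only. Comparisons of iNKT1-like cells between lymph node and the other organs thus set cells named by unlike rules side by side. At clustering resolution 1.0 the name covered 19.5% and 20.3% of the cells of the liver libraries. The spleen libraries then had 67.7% and 72.1%, and those of lymph node 8.83% and 13.0%. iNKT17-like cells (Il23r, Ccr6) were few in liver (22 and 29) and spleen (39 and 27) and many in lymph node (860 and 1007). The iNKT1-like cells came mostly from a different cluster in each organ, cluster 0 in liver, cluster 1 in spleen and a part of cluster 2 in lymph node. Cluster 2 as a whole, nearly all from lymph node, was led by Ccl1, Nrgn, Gm17056, Pdcd1, Dusp1, Ccr10, Ciart, Eif2s3y, Gadd45b and Nr4a1. These genes were ranked against all other cells, which were mostly from liver and spleen. The place of Ciart there repeats the organ difference on which it was chosen, and nothing further is read from it.

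Among iNKT1-like cells alone, Ciart was at 6.0 and 5.3 CPM in liver, 13.3 and 7.7 CPM in spleen, and 100.5 and 73.1 CPM in lymph node (log2 lymph node over liver 4.01 ± 0.27, SE). Per1 was at 10.97 and 12.2 CPM in liver, 8.6 and 7.3 CPM in spleen, and 31.7 and 27.9 CPM in lymph node, with a log2 fold over liver of 1.46 ± 0.32. Over all cells the log2 folds of the same genes were 3.64 and 1.46. Bhlhe40 reached 195.4 and 154.1 CPM in lymph node iNKT1-like cells, against 56.8 and 68.4 CPM in liver and 85.6 and 59.5 CPM in spleen, with a log2 fold over liver of 1.58 ± 0.16. Clock was at 24.8 and 26.6 CPM in lymph node iNKT1-like cells, 27.7 and 27.0 CPM in liver and 23.2 and 23.6 CPM in spleen, with a log2 fold of lymph node of 0.00 ± 0.28 over liver and 0.15 ± 0.30 over spleen (SE). The log2 fold of Nr1d1 over liver was 0.83 ± 0.38 within the class, against 1.6 over all cells. With the cells named iNKT1-like at resolution 1.0, an alternative chosen after seeing the data, the log2 fold of lymph node over liver was 3.99 ± 0.43 for Ciart, 1.69 ± 0.22 for Bhlhe40 and 0.98 ± 0.53 for Per1 (SE). Clock was then lower in both lymph node libraries than in the other 4, on 3 and 2 UMIs.

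In smaller classes the level of Ciart in lymph node rests on few UMIs. RTE-like cells, which resemble recent thymic emigrants and carry Ccr7 and S1pr1, held 31.2 CPM ± 0.080 in lymph node, 8.06 CPM ± 2.91 in spleen and 7.54 CPM ± 0.419 in liver (SD, n = 2), from 9, 14 and 4 UMIs. Ifit-like cells, with an interferon response, held 41.7 CPM ± 3.63 in lymph node, 4.66 CPM ± 6.59 in spleen and 7.92 CPM ± 3.09 in liver, from 6, 1 and 3 UMIs. Cycling cells were at 34.5 and 8.65 CPM in lymph node, 4.68 and 6.16 CPM in spleen and 3.78 and 0 CPM in liver, from 9, 3 and 2 UMIs. Ciart had 0 UMIs in the 36 Gzma-like and 28 NF-kB-like cells of lymph node, which allows up to 279.8 and 119.8 CPM in the Gzma-like sums and up to 145.5 and 267.4 CPM in the NF-kB-like sums, with 1 UMI each in the spleen sums and 1 and 6 UMIs in those of liver. No difference in Ciart between organs was detectable in those 2 classes.

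Levels between classes were tested with edgeR's quasi-likelihood test on sums per library and class, with library as a block. The genes were chosen on organ levels, but class and organ were linked. iNKT17-like cells were 34.0% of lymph node cells, 0.90% of liver cells and 1.22% of spleen cells. A choice by levels in lymph node can therefore favour genes high in its main classes. The class p-values are not independent of that choice, and nothing is read from the counts of genes called. The classes were drawn from the same cells, so these p-values hold for the classes as they were drawn. Of the 10 genes, 8 could be tested, Per2 and Tef being too low. The comparison asked which clock genes differ between kinds of iNKT cell once the library is held fixed.

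iNKT17-like cells had more Nr1d1 and Clock and less Bhlhe40 and Ciart than iNKT1-like cells. In the lymph node libraries Nr1d1 was at 68.4 and 44.7 CPM in iNKT17-like cells against 15.1 and 18.6 CPM in iNKT1-like cells, a log2 fold over all libraries of 1.80 ± 0.28 (SE, edgeR adjusted p 9.98e-09). These cells were 34.0% of lymph node cells and held 150 of the 211 lymph node UMIs of Nr1d1. Clock was at 54.4 and 51.9 CPM against 24.8 and 26.6 CPM (log2 0.97 ± 0.22, edgeR adjusted p 0.000177). Bhlhe40 was at 51.3 and 69.98 CPM against 195.4 and 154.1 CPM (log2 -1.28 ± 0.22, edgeR adjusted p 8.73e-06). None of these 3 pairs overlapped, and each call was made in all 13 alternatives.

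Ciart was at 49.7 and 41.8 CPM in lymph node iNKT17-like cells against 100.5 and 73.1 CPM in iNKT1-like cells (log2 -0.84 ± 0.21, edgeR adjusted p 0.00089). That call was lost without the first lymph node library, without the second, and with DESeq2 (adjusted p up to 0.234 over the alternatives). Dbp was at 73.8 and 72.1 CPM against 61.9 and 39.9 CPM (log2 0.51 ± 0.18, edgeR adjusted p 0.0321), a call lost in 7 of 13 alternatives, among them without the second liver, the first spleen and either lymph node library. Per1, at 24.9 and 36.1 CPM against 31.7 and 27.9 CPM, differed by -0.02 ± 0.27 on the log2 scale and was not called. In all, 5 of the 8 genes were called in iNKT17-like cells, 3 higher and 2 lower, beside 20.1% of all 6457 genes tested. Cells left without a class name, 14.0% of lymph node cells, were in none of these tests. In lymph node they held Bhlhe40 at 169.6 CPM ± 17.7 and Ciart at 89.2 CPM ± 24.9 (SD, n = 2). The iNKT1-like cells of lymph node held 174.8 CPM ± 29.2 and 86.8 CPM ± 19.4, so these levels were not particular to that class.

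**Figure D4:**
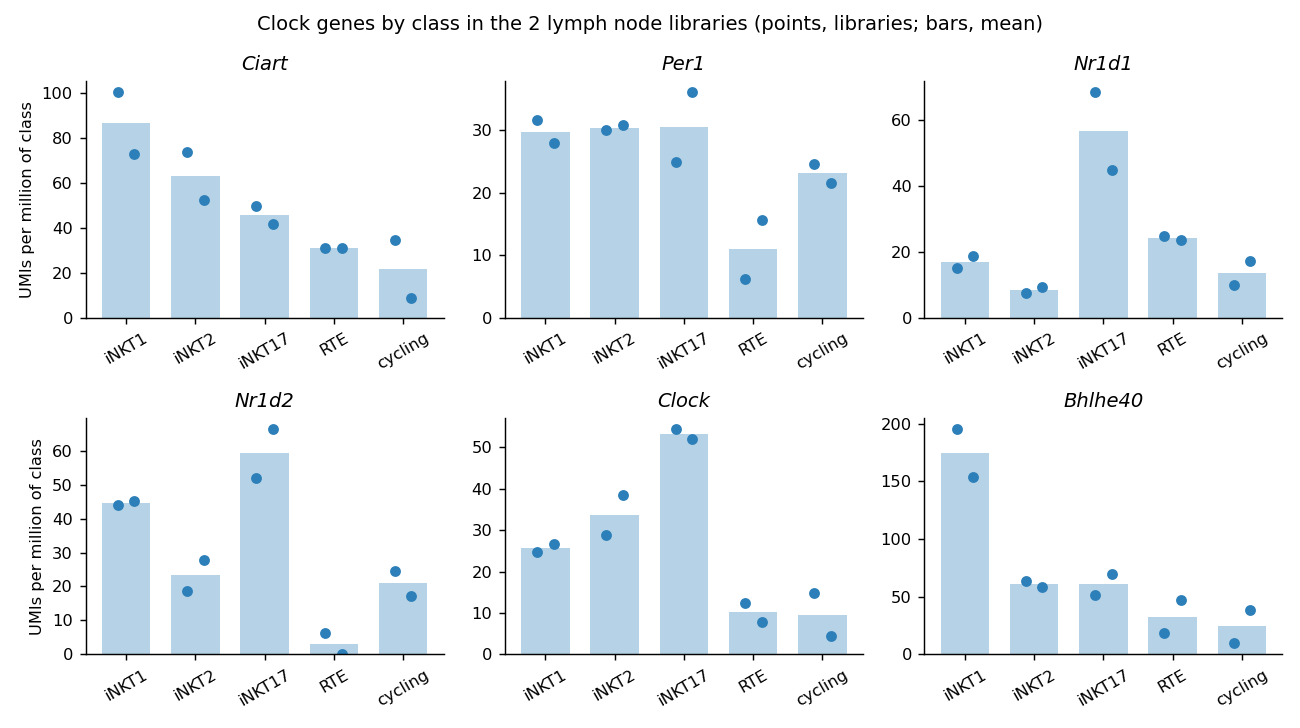
Level of 6 clock genes (CPM of the UMIs of the class, y axis, a separate scale for each gene) in 5 classes of lymph node iNKT cells. Points are the 2 libraries and bars their mean. Of the classes drawn, Nr1d1 and Clock stood highest in iNKT17-like cells and Bhlhe40 in iNKT1-like cells. Many points of the RTE-like and cycling classes rest on fewer than 10 UMIs. Lymph node cells without a class name are not drawn, and their mean for Bhlhe40 was 169.6 CPM.

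iNKT2-like cells, marked by Il4 and Gata3 among others, were tested in lymph node only, where both libraries held enough of them. Bhlhe40 was at 63.9 and 58.5 CPM there (log2 -1.30 ± 0.26 against iNKT1-like cells, edgeR adjusted p 0.00035) and Nr1d2 at 18.8 and 27.7 CPM against 44.0 and 45.2 CPM (log2 -0.98 ± 0.31, edgeR adjusted p 0.0214). Both were lower, and no other clock gene was called (2 of 8, beside 11.3% of all genes). The Nr1d2 call was lost with DESeq2, with sums of at least 50 cells and without the 2% of cells with most UMIs.

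RTE-like cells had less Bhlhe40 (log2 -1.68 ± 0.24, edgeR adjusted p 4.66e-07), Nr1d2 (-0.78 ± 0.23, edgeR adjusted p 0.00616) and Ciart (-0.81 ± 0.30, edgeR adjusted p 0.0416) than iNKT1-like cells, 3 of 8 genes beside 17.1% of all genes. In spleen, where most of these cells were found, Bhlhe40 was at 18.0 CPM ± 5.73 against 72.5 CPM ± 18.5 (SD, n = 2). The Bhlhe40 call was made in all 13 alternatives. The Nr1d2 call was made in 10 of 13 alternatives and was lost without the second spleen library, with DESeq2 and without regression of UMI count and mitochondrial share before clustering. The Ciart call was made in 7 of 13 and was lost without the first spleen library, without either lymph node library, with DESeq2, at clustering resolution 1.0 and without the 2% of cells with most UMIs.

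Cycling cells (Mki67, Top2a) had the highest depth of all classes, a median of 5354 UMIs per cell with ribosomal and haemoglobin genes included. They had lower shares of their UMIs in 6 of the 8 genes, beside 44.2% of all genes called in either direction. Ciart was lower by 1.67 ± 0.36, Bhlhe40 by 1.47 ± 0.24, Nr1d2 by 1.36 ± 0.28, Clock by 0.97 ± 0.28, Dbp by 0.80 ± 0.21 and Arntl by 0.59 ± 0.25 (log2, SE), with edgeR adjusted p from 2.6e-06 (Bhlhe40) to 0.0418 (Arntl). Without the 2% of cells with most UMIs 3 of the 6 calls were made, and the Arntl call was lost in 9 of 13 alternatives, including without either liver library, the first spleen library and either lymph node library.

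NF-kB-like cells, which were mostly from liver, had less Dbp (log2 -1.21 ± 0.23, edgeR adjusted p 7.73e-06). In liver Dbp was at 26.9 CPM ± 5.46 in these cells and 57.4 CPM ± 12.2 in iNKT1-like cells (SD, n = 2). Arntl (-0.67 ± 0.27, edgeR adjusted p 0.0446) and Nr1d2 (-0.67 ± 0.27, edgeR adjusted p 0.0484) passed narrowly, which made 3 of 8 genes beside 29.8% of all genes. Leaving out most single libraries ended the Arntl and Nr1d2 calls, namely any but the first liver library for Arntl and any but the second lymph node library for Nr1d2. Bhlhe40 was at 104.0 CPM ± 27.7 in liver NF-kB-like cells against 62.6 CPM ± 8.19 and missed the threshold (log2 0.50 ± 0.20, edgeR adjusted p 0.0547), with a call in 3 of 12 alternatives. In the lymph node libraries alone, with 16 and 12 NF-kB-like cells, its direction turned (log2 -0.64).

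In Gzma-like and Ifit-like cells none of the 8 genes was called by edgeR, beside 3.96% and 4.88% of all genes. At an unadjusted p under 0.05 there were 3 and 1, and DESeq2 called 0 in both. In Gzma-like cells Nr1d1 had 1 UMI in 285 liver cells and 0 in the 144 spleen and 36 lymph node cells (edgeR log2 -2.92 ± 0.96, adjusted p 0.0599). That difference was called without the first liver library and with no filter on low counts. Whether the difference between iNKT17-like and iNKT1-like cells itself differed between organs was tested as an interaction. None of the 9 genes in that fit was called by edgeR (lowest adjusted p 0.781, unadjusted p under 0.05 for 0 genes, DESeq2 0), beside 1.11% of 9074 genes, with at most 39 iNKT17-like cells in a liver or spleen library.

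**Figure D5:**
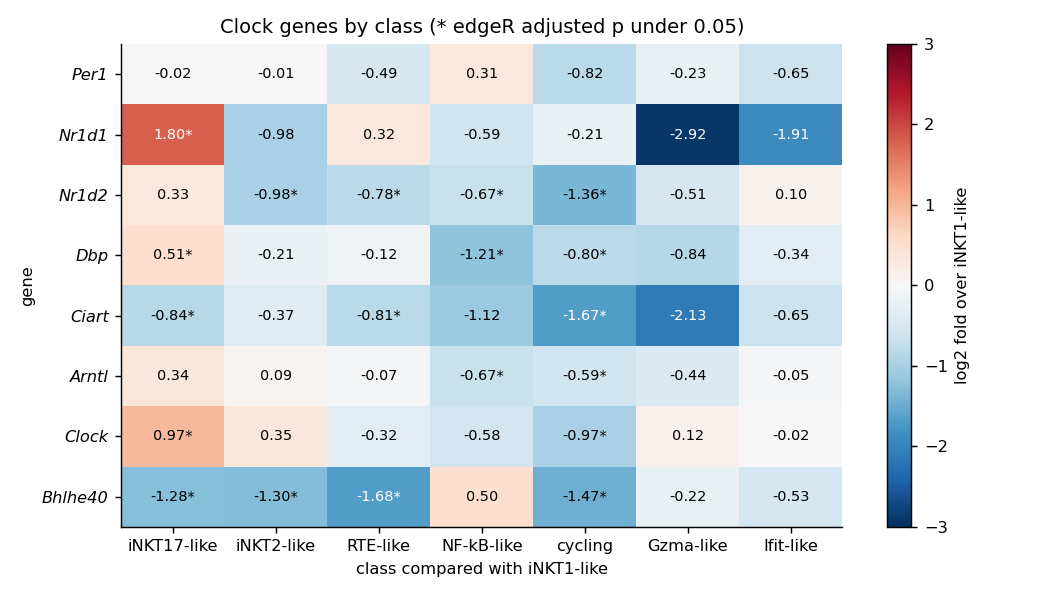
Log2 fold over iNKT1-like cells (number and colour, red higher and blue lower) of the 8 clock genes that could be tested, by class, with an asterisk where the edgeR adjusted p was under 0.05. Nr1d1 and Clock rose in iNKT17-like cells (1.80 and 0.97), and Bhlhe40 fell in 4 of the 7 classes.

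Further genes of the pathway were taken from a list of 41, of which 40 were in the files and 38 passed the filter. They were tested between organs with edgeR. Between liver and lymph node 10 of 38 (26.3%) were lower in liver and 3 (7.89%) higher, beside 19.6% and 18.0% of all 10250 genes. Between spleen and lymph node 11 (28.9%) were lower in spleen and 0 higher, beside 10.3% and 7.89% of all genes. The 0 held also at an unadjusted p under 0.05 and with DESeq2. Between liver and spleen 7 (18.4%) were lower in liver and 5 (13.2%) higher, beside 13.1% and 12.8%. Single libraries moved several of these counts by over 1.5 times. The 7 became 3 without the second liver or second spleen library and 4 without the first spleen or either lymph node library, and the 5 became 2 without the first liver and 3 without the second spleen library. The 3 higher in liver than in lymph node became 1 without the first and 0 without the second lymph node library, and the 11 lower in spleen became 7 without the first and 6 without the second spleen library. Their median log2 fold was 0.21 for lymph node over liver, 0.26 over spleen and 0.03 for liver over spleen, and it did not move with Hlf at the bound given below.

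Of the repressors in that list, Cry1 was at 32.1 and 27.0 CPM in liver, 31.5 and 30.5 CPM in spleen, and 40.0 and 47.4 CPM in lymph node. It was lower in liver (log2 -0.62 ± 0.16, edgeR adjusted p 0.0021) and in spleen (-0.48 ± 0.17, edgeR adjusted p 0.0417) than in lymph node, calls that were lost without the second lymph node library and, for spleen, also without the first, without either spleen library and with DESeq2. Per3 was at 10.2 and 8.2 CPM in liver, 9.5 and 11.9 CPM in spleen, and 14.5 and 13.2 CPM in lymph node, and its call against liver (log2 -0.64, edgeR adjusted p 0.0399) was lost in 7 of 12 alternatives, namely without either library of liver or of lymph node, with DESeq2, with no filter on low counts and without the 2% of cells with most UMIs. Cry2, at 2.6 to 5.8 CPM in every library, was not called between any organs. The same held for Npas2, the relative of Clock, at 2.7 to 3.6 CPM.

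Of the receptors that act against REV-ERB, Rora was at 152 to 219 CPM in all libraries, and its call between liver and spleen (log2 -0.33, edgeR adjusted p 0.0491) was lost in 9 of 12 alternatives, including without the second liver library and without any spleen or lymph node library.

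Factors at D-boxes also differed. Nfil3 (E4BP4), which represses there and is needed for several lymphoid lineages, was at 3.9 and 2.5 CPM in liver, 2.3 and 1.4 CPM in spleen, and 18.0 and 15.1 CPM in lymph node. It was lower in liver (log2 -2.40 ± 0.305, edgeR adjusted p 1.18e-07) and in spleen (-3.11 ± 0.38, edgeR adjusted p 1.2e-07). Hlf, a relative of Dbp and Tef, had 0 UMIs in both liver libraries, 2 in each spleen library, and 32 and 34 in the lymph node libraries. Against liver, its lymph node level was at least 39.5-fold higher, where a floor of 3 UMIs over both libraries was used, and 59 of its 66 lymph node UMIs were in iNKT17-like cells. Nfil3 had 77 of 122 lymph node UMIs in those cells.

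Among output genes Klf10 was at 15.4 and 19.8 CPM in liver, 33.8 and 44.1 CPM in spleen, and 104.3 and 116.8 CPM in lymph node, and all 3 pairs of organs were called (edgeR adjusted p up to 5.54e-06). Klf9, which glucocorticoids raise, was at 22.4 and 11.1 CPM in liver, 5.4 and 3.0 CPM in spleen, and 22.3 and 25.5 CPM in lymph node, and it was lower in spleen than in either other organ (edgeR adjusted p 0.000293 at most). Tsc22d3, also raised by glucocorticoids, was at 86.8 and 65.4 CPM in liver and 25.8 CPM in both spleen libraries. Its lymph node libraries stood at 94.9 and 192.5 CPM, and its call against spleen (edgeR adjusted p 0.0449) was lost without any 1 of the 4 liver and spleen libraries. Cirbp, a cold-induced RNA-binding protein, was at 136 and 149 CPM in liver and 297 to 319 CPM in the other 4 libraries, and it was lower in liver than in spleen (log2 -1.19 ± 0.12) and in lymph node (-1.17 ± 0.12, edgeR adjusted p 4.81e-09 at most).

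The genes whose levels over the 6 libraries were most like each clock gene were ranked among 5902 genes by Pearson's r of log2 CPM (on library sizes scaled by TMM), as a description over libraries that share organs and depth. For Ciart they were Junb (r = 0.997), Serpinb1a (0.996) and Sdc1 (0.995). Junb, an AP-1 factor, was at 399.6 and 401.2 CPM in liver, 804.4 and 629.2 CPM in spleen, and 4053 and 4360.4 CPM in lymph node. Per1 was close to Tgoln1 and Naa30, Nr1d1 most like AK010878, Clint1 and S100a11, and Nr1d2 most like Pde6d, Sap30 and Gm17056. Clock was most like Zfp740, Furin and Tmem64, and Bhlhe40 most like Dnttip1, Smap2 and Rbm38. For Dbp, Tef and Arntl the leading genes were Tbc1d22b, DHRSX and Mapkap1.

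Immediate early genes moved with the same libraries. The 10 genes of that list (Fos, Fosb, Jun, Junb, Egr1, Ier2, Dusp1, Nr4a1, Atf3 and Zfp36), of which Atf3 was at 0 in both spleen libraries, summed to 839 and 835 CPM in liver, 1467 and 1220 CPM in spleen, and 6913 and 7421 CPM in lymph node, and their part in the levels of Ciart, Per1 and Bhlhe40 was not tested. Markers of other cells were low. The 10 hepatocyte genes summed to 6.0 to 17.7 CPM per library with 4 of them at 0, B cell genes to 2.5 to 16.4 CPM, and fibroblast genes to 0 to 0.281 CPM. Endothelial genes summed to 25.1 and 29.9 CPM in liver, 42.3 and 41.0 CPM in spleen, and 62.7 and 65.8 CPM in lymph node. Most of this was Pecam1, at 52.8 and 50.2 CPM in lymph node, followed there by Stab2 at 9.9 and 15.6 CPM, with Cdh5 and Kdr at 0. Myeloid genes summed to 2.2 to 28.4 CPM in 5 libraries and to 128.6 CPM in the second lymph node library, where Lyz2 alone was at 107.5 CPM. The part of myeloid cells or their free RNA in the levels of the clock genes was not tested. In sums over cells, fewer cells with a transcript and less of it per cell cannot be told apart.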

How the data were processed

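Cells were sorted from liver, spleen and lymph node, with 2 droplet libraries per organ (10x 3′ kit). The counts deposited by the authors were whole UMIs per gene and cell. The submitters' processing notes name Cell Ranger 3.1.0 and Seurat. The other values deposited were barcodes and gene names. Reads were aligned to the mouse build mm10 per the labels and the study's methods. The annotation used for counting, and its use of strand, are not given in the sources used here, and gene positions were taken from GENCODE (GRCm38, the assembly of mm10). The molecule was labelled as nuclear RNA. Cells were kept with 300 to 4000 genes and at most 15% of UMIs from mitochondrial genes, that is 16532 of 16587 barcodes, more than the study states it kept. Ribosomal and haemoglobin genes (111) were dropped. No doublet caller was run, and leaving out the 334 cells with most UMIs stood in for one.

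UMIs were summed per library and scaled to CPM by the library total. Organ fits used edgeR 4.0.16 (quasi-likelihood, TMM, filterByExpr with a minimum count of 10, Benjamini-Hochberg adjustment over all genes tested, threshold 0.05) on all 6 libraries with organ as the term, in R 4.3.3. Cells were clustered with scanpy 1.11.5 and leidenalg 0.10.2 (3000 variable genes, 20 components, 20 neighbours, resolution 0.5) with 50 clock and pathway genes left out, and clusters were named where the markers of a type had a median log2 fold of at least 1 with at least 3 of them 2-fold up. Any other cluster took the name iNKT1-like if its iNKT1 markers had a median above 0, and parts of the remaining clusters of at least 500 cells were named iNKT1-like or iNKT2-like from a median of at least 0.5 within the cluster. Class fits used sums of at least 10 cells, with library as a block. Alternatives were DESeq2 1.42.0, no filter, a replicate block, thinning to one total, other clustering settings, and leaving out each library. A class fit in the lymph node libraries alone, and an organ fit in cells named iNKT1-like at resolution 1.0, were added after seeing the data. The clock genes, the pathway and marker lists and the tests were chosen with earlier results of these data known. Further pathway genes were named when they are close relatives of the members or feedback partners, or were called with a log2 fold over 1. The 3 genes most like each member were taken by Pearson's r among genes with a mean of at least 20 CPM, with a prior count of 2. On simulated counts, the liver and spleen fit recovered 40.3% of genes changed 1.5-fold, 83.6% of those changed 2-fold and 100.0% of those changed 4-fold over 10250 genes. The class fit of iNKT17-like against iNKT1-like cells recovered 93.0% of genes changed 4-fold over 6457 genes, with direction not checked. Its simulated counts had the same dispersion for every gene and no library effect other than depth. Smaller changes were not simulated for classes, so recovery of smaller class folds is not known. A few genes that these rules would name are not reported here.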

Additional observations from a re-analysis of the deposited data

How the results depend on the processing

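The organ folds of the clock genes moved by less than the spread between replicates in 326 of 351 values recomputed, and in 25 by more. The number of clock genes with both lymph node libraries highest was 6, and it was 5 to 7 under the alternatives. Leaving out each library gave 2 to 5 pathway genes higher in liver than in spleen (5 with all libraries, 2 without the first liver library, 3 without the second spleen library), 3 to 5 lower (7 with all, 4 with DESeq2), 0 to 3 higher in liver than in lymph node (3 with all, 1 without the first and 0 without the second lymph node library), 7 to 11 lower (10 with all), and 6 to 10 lower in spleen than in lymph node (11 with all, 7 without the first and 6 without the second spleen library). The 3 to 5 lower in liver than in spleen were 3 without the second liver or second spleen library and 4 without the first spleen or either lymph node library.

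Of the class calls, clock genes called numbered 0 to 1 in Gzma-like cells when each library was left out (1 without the first liver library and 1 with no filter on low counts), 1 to 2 in NF-kB-like cells (3 with all libraries, 1 without either spleen library, 1 with DESeq2, 5 with no filter, 1 at resolution 1.0 and 0 in lymph node alone), and 3 to 5 in iNKT17-like cells (3 without either lymph node library and 3 with DESeq2). They numbered 1 in RTE-like cells with DESeq2, 3 in cycling cells without the 2% of cells with most UMIs and 2 in lymph node alone, and 1 in iNKT2-like cells with DESeq2, with sums of at least 50 cells and without the 2% of cells with most UMIs. Nr1d2 in NF-kB-like cells reversed to 0.61 (log2) in lymph node alone, where that class held 16 and 12 cells. Within cells named iNKT1-like at resolution 1.0, Clock was at -1.03 over liver and -1.31 over spleen in lymph node (log2). The causes were not tested.

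Libraries with the same number deviated together only weakly (r = 0.088, 0.085 and 0.069 across 10246 genes). This cannot decide whether they came from the same mice, since a shared effect of mice can be small beside other differences between libraries. The main organ fit did not pair them. With a replicate block 7 pathway genes were higher and 7 lower in liver than in spleen, 3 higher and 13 lower in liver than in lymph node, and 0 higher and 10 lower in spleen than in lymph node. Among the pathway genes named above, the block ended the call of Tsc22d3 between spleen and lymph node. It added one for Klf9 between liver and lymph node. Calls that it changed in other pathway genes are not named here. Depth limits Per2, with 30 UMIs in all, and liver and spleen iNKT17-like cells.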
